A study of Arabidopsis thaliana with 6 samples.

Results

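The long-chain fatty alcohol oxidases of Arabidopsis thaliana are encoded by a family of 4 loci: FAO1 (AT1G03990), FAO3 (AT3G23410), FAO4A (AT4G19380) and FAO4B (AT4G28570). The family was selected on the measured response of one member: FAO4A had the most negative difference between dexamethasone-treated (DEX) and control (Mock) arrays among the genes called in this experiment. The other 3 loci were taken because they belong to the same family. All 4 were on the array, each with 1 feature, out of 32627 genes with values. Of the 4, only AT3G23410 carries an FAO symbol in the RefSeq gene table (assembly TAIR10.1). FAO1, FAO4A and FAO4B are the family's usual names for loci that this table lists without a symbol.

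Transcripts were measured on 6 single-colour NimbleGen arrays of inflorescences of the accession Landsberg erecta (Ler). All plants, controls included, carried 35S::SUP-GR, in which the strong and nearly constitutive viral 35S promoter drives a fusion (GR for glucocorticoid receptor) of the floral zinc-finger protein SUPERMAN (SUP) with a steroid-binding domain. Such a fusion is generally inactive until a steroid is given. For the 3 DEX samples, inflorescences were dipped for 1 min in dexamethasone at 10 µM, made from an ethanol stock of 30 mM; the dose unit in the labels is one of length and was taken to mean µM. The 3 Mock samples were dipped in ethanol alone, and both solutions held 0.015% of the wetting agent Silwet L-77. Plants grew at 22 °C in continuous light, and buds younger than flower stage 10 were harvested 4 hours after the dip. Since every DEX sample carried the fusion, an effect of the steroid itself cannot be told apart from one of the fusion protein. The submitters call the 3 sets of samples independent without saying what was separate, so the spread between arrays may be partly technical.

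Long-chain fatty alcohol oxidases are flavin enzymes of the glucose-methanol-choline (GMC) oxidoreductase superfamily. They use oxygen to turn a fatty alcohol into the corresponding aldehyde and release hydrogen peroxide, a reaction best known from yeasts that grow on alkanes and from oil seedlings that break down stored lipids. Aldehyde dehydrogenases can take the aldehyde on to a fatty acid. In the shoot epidermis, long-chain alcohols are themselves products: they are part of the cuticular wax, and related hydroxy acids are building blocks of cutin.

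The arrays had similar scales, with median intensities of 74.2 to 77.3. Transcripts of 87 chloroplast genes were low on Mock replicate 1, at a median deviation of -0.52 from each gene's mean on the log2 scale, against 0.03 to 0.21 on the other 5 arrays. Those of 107 mitochondrial genes were low on the same array, at -0.48 against -0.02 to 0.22. The tissue label was checked against 6 floral regulators (AP1, AP3, PI, AG, LFY and SEP3), and all 6 were brighter than the median gene. So were 2 of 4 root markers (COBL9 and IRT1), so this brightness alone cannot settle the tissue. The log2 intensity of SUP averaged 8.79 ± 0.09 over the Mock arrays and 8.88 ± 0.07 over the DEX arrays (SD, n = 3), and the groups overlapped. A transcript level does not report the activity of the fusion protein.

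FAO4A was the family member with a large difference. Its intensity was 155, 185 and 152 on Mock replicates 1, 2 and 3. It was 14.1, 11.7 and 11.7 on DEX replicates 1, 2 and 3. The groups were far apart: the lowest Mock array was 10.8 times as bright as the highest DEX array. The mean intensity was 164 in Mock and 12.5 in DEX, a ratio of 13.1, so that 7.64% of the Mock signal was left. On the log2 scale the Mock mean was 7.35 ± 0.16 and the DEX mean 3.64 ± 0.16 (SD, n = 3), which differ by -3.71 (SE 0.14). Because this contrast chose the gene, no test is given for it. The spread of FAO4A between arrays of a group, 0.16 on the log2 scale, was smaller than the 0.26 of the median gene.

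**Figure D1:**
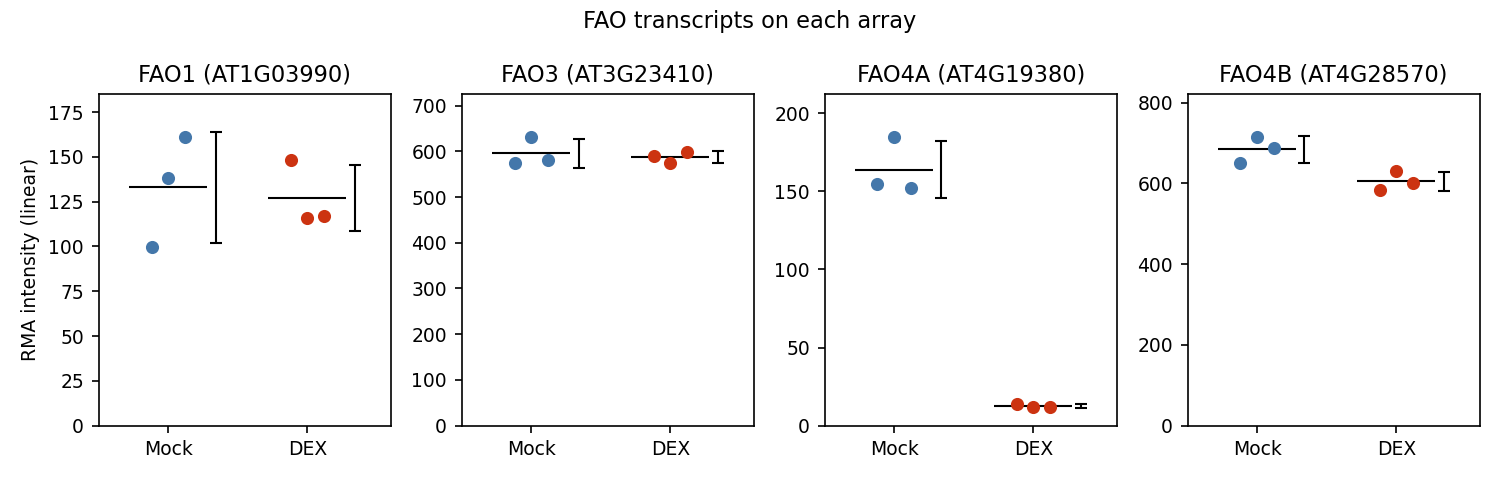
Intensity (linear RMA values) of the 4 FAO transcripts on each array, with the 3 Mock arrays in blue and the 3 DEX arrays in red; horizontal lines are group means and the bars beside them ± 1 SD, and each panel has its own axis from 0. FAO4A goes from a mean of 164 to 12.5, while FAO1 and FAO3 overlap between groups and FAO4B is lower on all 3 DEX arrays by a small margin.

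The DEX signal of FAO4A was dim. The gene was brighter than 59.5% of genes in Mock and than 34.6% of genes in DEX, where the median over all arrays and genes was 74.3. The table holds no detection calls, so whether the remaining 12.5 was above the array's background was not tested. The size of the difference therefore depends on how dim values are handled, and it was -2.65 (SE 0.09) with 16 added to each intensity before log2. Next in size among the called genes were the growth-regulating factor gene GRF7 at -3.54 (SE 0.18) and the serine carboxypeptidase-like gene scpl10 at -3.50 (SE 0.24). The gap from FAO4A to each was no larger than that gene's own SE, so the order of these 3 is not settled by the data. With 16 added the order turned, with GRF7 at -3.08 (SE 0.12), beyond FAO4A, and the dim scpl10 at -1.53 (SE 0.12). Without any one array the difference of FAO4A stayed between -3.80 and -3.62.

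FAO4B had intensities of 649, 715 and 688 on Mock replicates 1, 2 and 3 and of 584, 631 and 600.4 on DEX replicates 1, 2 and 3. The groups did not overlap, but the gap was narrow, with the lowest Mock array only 1.03 times as bright as the highest DEX array. The difference was -0.18 (SE 0.10), from 9.42 ± 0.07 to 9.24 ± 0.06 (log2 intensity, SD, n = 3). A difference of this size is ordinary on these arrays, since 47.0% of all genes had a smaller one in either direction.

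FAO3 had intensities of 573, 632 and 582 on Mock replicates 1, 2 and 3 and of 589.9, 574 and 599 on DEX replicates 1, 2 and 3. The groups overlapped throughout, and the difference was -0.02 (SE 0.10), or 0.01 after centring each array on its median. In size it exceeded the difference of 5.67% of all genes.

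FAO1 varied most between arrays of one group. Its intensities were 99.9, 138 and 161 on Mock replicates 1, 2 and 3 and 148, 116 and 117 on DEX replicates 1, 2 and 3. The DEX values lay within the range of the Mock values, and the difference was -0.05 (SE 0.22). Its lowest value was on Mock replicate 1, the array with low organelle transcripts, and without that array the difference was -0.24 (SE 0.17). Without Mock replicate 3 it was 0.10 (SE 0.22), so its sign depends on single arrays. Near-zero differences in FAO1 and FAO3 do not show that these transcripts were unaffected. With 3 arrays a group, even differences many times their SE were not called, such as -1.58 (SE 0.14) for the hydroxylase gene CYP86A4, described below.

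Across the family, 2 of 4 members had all DEX arrays below all Mock arrays, where 9.2% of all genes did. No member had all DEX arrays above all Mock arrays, where 8.74% of all genes did. With the limma fit, 1 of 4 members was called lower (adjusted p under 0.05 over all genes), against a background of 0.049% of genes called lower. These counts come from the contrast that chose the family and support nothing about it. The family's median difference was -0.11, against 0.0054 over all genes, of which 49.1% were below 0.

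**Figure D2:**
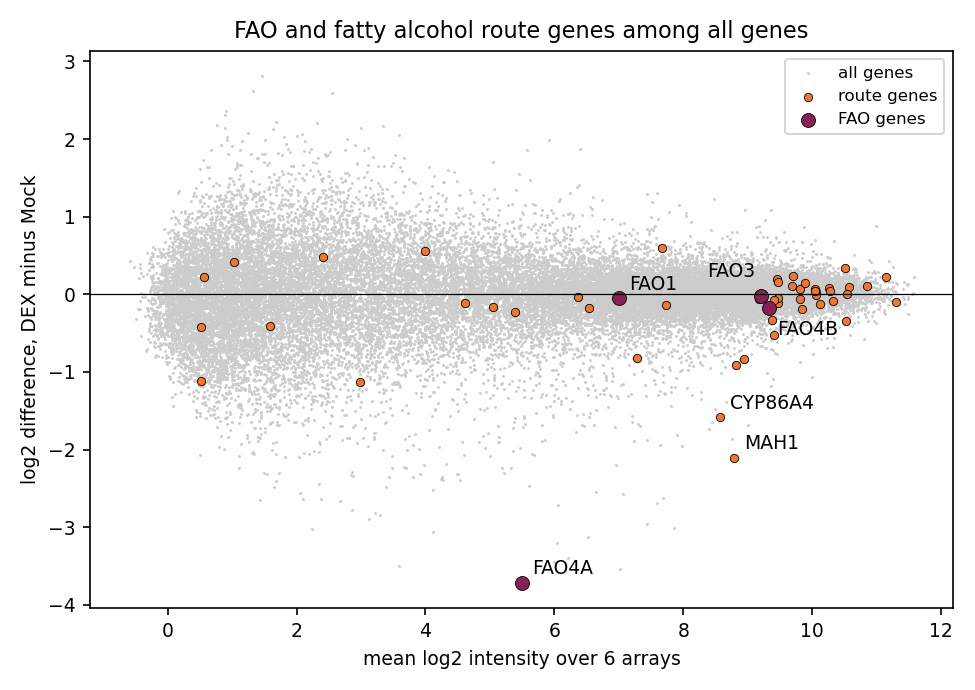
Log2 difference, DEX minus Mock, against mean log2 intensity over the 6 arrays for 32627 genes (grey), the 49 genes of the fatty alcohol route lists (orange) and the 4 FAO genes (purple). FAO4A lies at the lower edge at -3.71, and FAO1, FAO3 and FAO4B lie between -0.18 and -0.02; the scatter of all genes widens at low intensity.

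The tissue was harvested whole, and fewer cells of a type and less RNA per cell cannot be told apart in such samples. Summed markers of some cell types differed in the same comparison. The summed intensity of the 6 floral regulators was 4761 to 5078 on the Mock arrays and 3837 to 4070 on the DEX arrays. For 3 vascular markers (SUC2, WOX4 and XCP1) it was 810 to 917 in Mock and 459 to 582 in DEX. A sum follows its brightest members: SUC2 went from a mean of 691 to 410, while XCP1 overlapped at -0.27 (SE 0.16). Of the floral regulators, AP1, LFY and SEP3 were lower without overlap, while AP3 (-0.18), PI (-0.32) and AG (-0.10) overlapped. For 3 epidermal markers (ATML1, PDF2 and FDH) the sum was higher in DEX, at 3390 to 3669 in Mock and 3983 to 4263 in DEX. Of these, PDF2 and FDH were higher without overlap, while ATML1 overlapped at 0.11 (SE 0.12). The sums of 4 tapetum markers, at 2382 to 2784 in Mock and 2422 to 2693 in DEX, overlapped. Within them AMS was at 0.29 (SE 0.12) without overlap, MS1 at 0.08, A9 at -0.19 and TDF1 at -0.29. The sums of 4 mature pollen and 4 root markers overlapped as well, with pollen markers from -0.52 (VGD1) to 0.36 (AGP6). The root markers were uneven: EXPA7 and PHT1;1 were at mean intensities of 3.12 and 3.38 in Mock, whereas COBL9 and IRT1, at 167 and 237, were above the median of all genes. None of these 24 markers was called, while 5 (20.8%) were lower and 1 (4.17%) higher at an unadjusted p under 0.05, against 5.92% and 4.5% of all genes. With limma's trended and robust prior, which lets the expected spread follow intensity, 3 (12.5%) were called lower, LFY, SUC2 and WOX4, against 1.06% of all genes. The cambium regulator WOX4 had the most negative marker difference, at -1.60 (SE 0.20), and the floral meristem regulator LFY was at -0.82 (SE 0.18). Both differences were smaller in size than the -3.71 of FAO4A. The cells that hold FAO4A transcripts are not known here, so this comparison says nothing about cell composition. The part of cell composition in the FAO4A difference was not tested.

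Genes that make, use or compete for fatty alcohols were examined next, as 8 lists with 49 genes, all measured. None of the 49 was called (limma, adjusted p under 0.05), where 0.049% of all genes were called lower and 0.00306% higher. At an unadjusted p under 0.05, 9 of 49 (18.4%) were lower and 2 (4.08%) higher, against 5.92% and 4.5% of all genes. The median difference over the 49 genes was -0.06, with 28 below 0. Calls on these lists depended on the variance prior and on which genes were tested. With the default prior but without genes below the median intensity, 5 of 38 route genes were called lower, against 221 of 16314 genes. With the trended and robust prior, 7 of 49 (14.3%) were called lower and 1 (2.04%) higher, against 1.06% and 0.257% of all genes. Without Mock replicate 1, that prior called 3 lower and none higher. The lists were chosen with earlier results of these data known. Of the 49 genes, 38 were brighter than the median gene, so all genes are not a like background. These shares therefore support nothing about the route.

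Fatty acyl reductases supply the substrate of the oxidases by reducing activated fatty acids to alcohols. Of 8 such genes none was called, and the median difference was -0.09. At an unadjusted p under 0.05, 3 (37.5%) were lower and 1 (12.5%) higher, against 5.92% and 4.5% of all genes. CER4, the reductase for the primary alcohols of shoot wax, had intensities of 237, 177 and 211 on the Mock arrays and 120.1, 111 and 119.8 on the DEX arrays. The groups did not overlap, and the difference was -0.82 (SE 0.14, limma adjusted p = 0.168). Its adjusted p was 0.0137 with the trended and robust prior and up to 0.384 under the other settings. FAR1, a reductase for primary alcohols of suberin, was at -0.83 (SE 0.17, adjusted p = 0.232). Its adjusted p was 0.00515 with the trended and robust prior and up to 0.431 elsewhere. Both also passed with the default prior when genes below the median intensity were left out (adjusted p = 0.0157 for CER4 and 0.0324 for FAR1). With the trended and robust prior but without Mock replicate 1, the adjusted p was 0.0679 for CER4 and 0.0154 for FAR1.

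In the other direction, MS2, the tapetal reductase of pollen wall synthesis, had intensities of 1369, 1323 and 1191 in Mock and 1668, 1633 and 1623 in DEX, a difference of 0.34 (SE 0.11, limma adjusted p = 0.366). With the trended and robust prior its adjusted p was 0.0476, or 0.0558 without Mock replicate 1, and it reached 0.580 under other settings. MS2 was named after its values were seen. FAR6 had a difference of -1.11 (SE 0.26, adjusted p = 0.265), but at mean intensities of 2.18 and 0.974 it was near the bottom of the scale. Only 3 of the 8 reductases were brighter than the median gene.

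The 8 GMC oxidoreductases of the HOTHEAD type belong to the same superfamily as the FAO proteins. Only HTH itself, an enzyme proposed to oxidise long-chain hydroxy fatty acids and needed to keep floral organs separate, has a symbol in the RefSeq table. HTH was at 1090.2, 1035 and 1049 in Mock and 1049.5, 1097 and 1102 in DEX, with overlapping groups and a difference of 0.03 (SE 0.10). None of the 8 was called, and their median difference was -0.10. At an unadjusted p under 0.05, 1 (12.5%) was lower and 0 higher, against 5.92% and 4.5% of all genes. The smallest unadjusted p values belonged to AT1G73050 at -0.33 (SE 0.12, limma adjusted p = 0.440), AT1G14185 at -1.13 (SE 0.52, adjusted p = 0.538) and AT3G56060 at -0.17 (SE 0.22, adjusted p = 0.834). AT1G14185 was dim, at mean intensities of 12.5 and 5.95. HTH was named as the list's best known gene, outside the naming rule.

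Downstream of the oxidases, class 3 aldehyde dehydrogenases oxidise aldehydes to acids. ALDH3F1, ALDH3H1 and ALDH3I1 had overlapping groups and differences of -0.12 (SE 0.17), 0.11 (SE 0.14) and -0.12 (SE 0.13). A second ALDH3H1 feature was at -0.05 (SE 0.11), and a dim second feature of ALDH3I1 at -0.58 (SE 0.63). None was called, and none had an unadjusted p under 0.05. The 11 genes of fatty acid activation and of peroxisomal beta-oxidation, which breaks acids down, had a median difference of 0.04. None was called or reached an unadjusted p of 0.05. The closest were ACX1 and ACX2, acyl-CoA oxidases, at 0.24 (SE 0.10, limma adjusted p = 0.496) and 0.20 (SE 0.11, adjusted p = 0.613). A second ACX2 feature was at only 0.05 (SE 0.11). LACS2, an acyl-CoA synthetase of cutin synthesis, was at -0.19 (SE 0.12, adjusted p = 0.633).

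Catalases remove hydrogen peroxide, the by-product of the FAO reaction. CAT3 had intensities of 1997, 2029 and 2271 in Mock and 2535, 2517 and 2288 in DEX, a difference of 0.22 (SE 0.11, limma adjusted p = 0.565). CAT2 was at 0.16 (SE 0.11, adjusted p = 0.660). In both genes the DEX arrays lay above the Mock arrays without overlap, as in 8.74% of all genes. Both gaps were narrow, and in CAT2 the highest Mock array was at 707 and the lowest DEX array at 709. Neither gene passed. Both genes have further features, and the mean over features of CAT2, of which the second is close to the bottom of the scale, was -0.13. CAT1 overlapped, at -0.07 (SE 0.12).

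**Figure D3:**
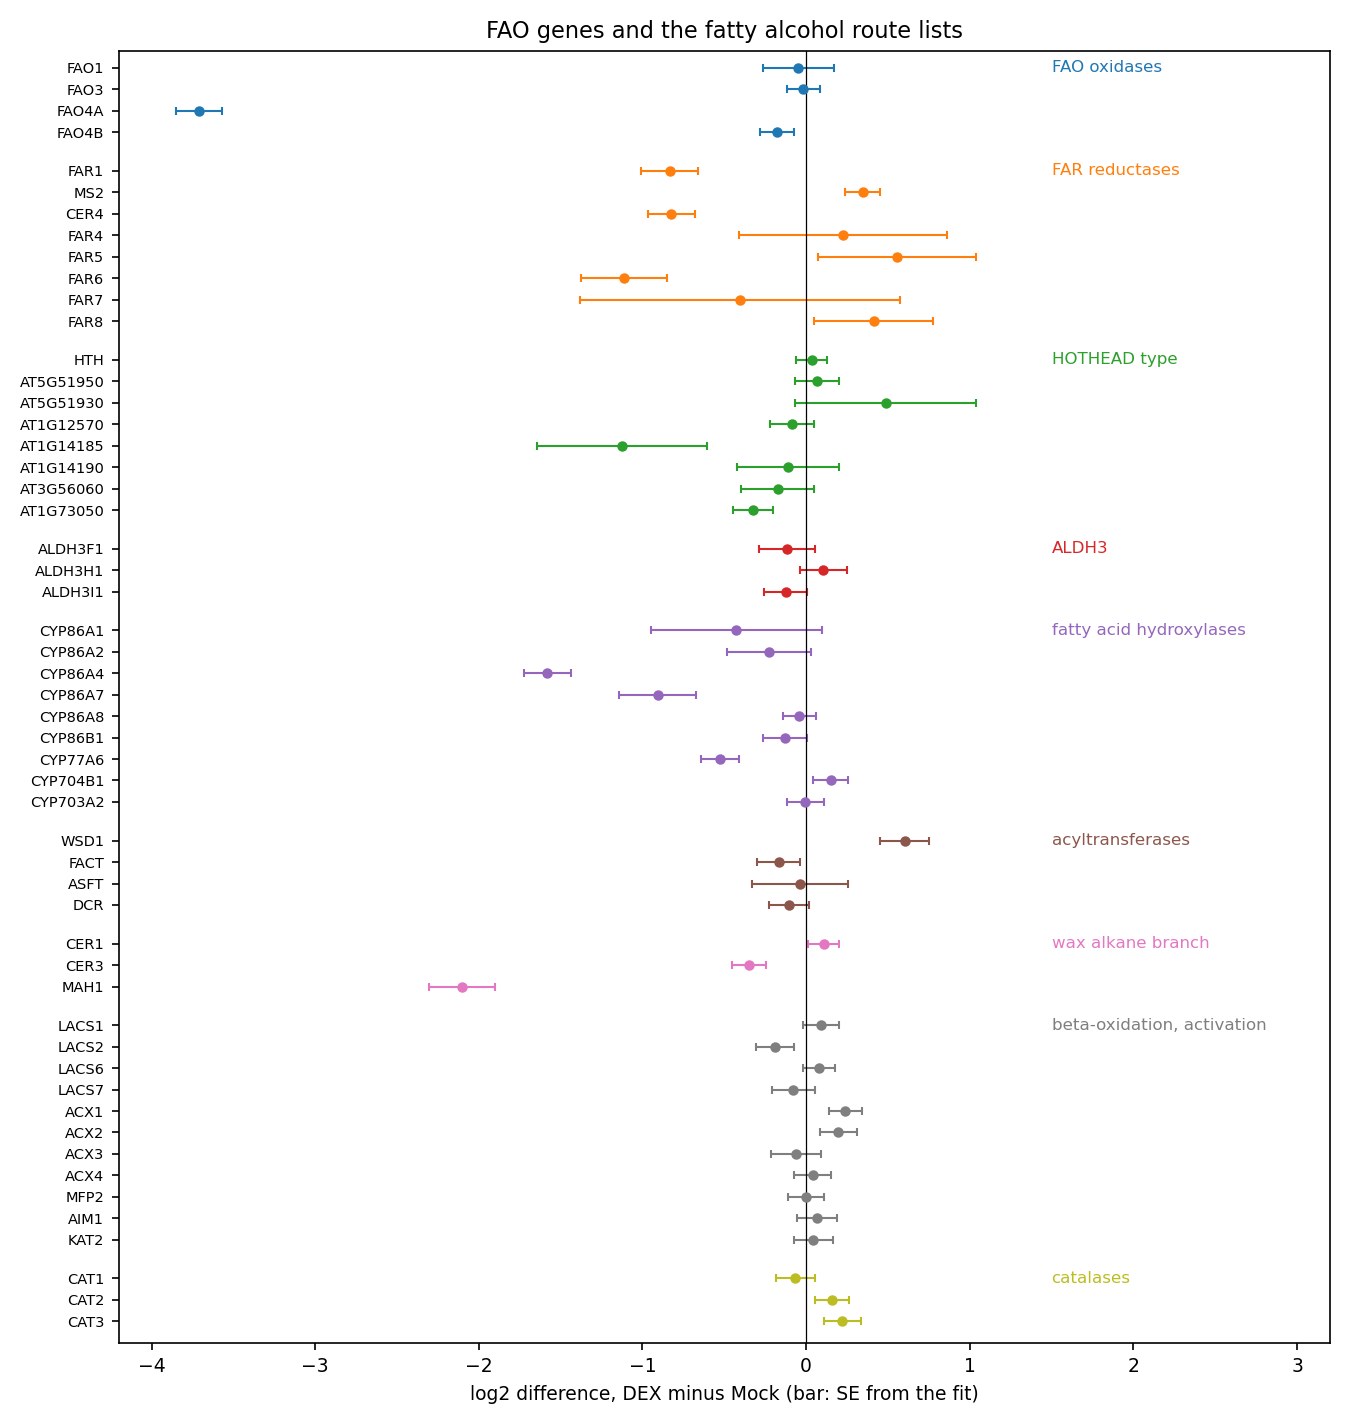
Log2 difference, DEX minus Mock, with the SE from the fit as a bar, for the 4 FAO genes and the 49 genes of the 8 route lists, coloured by list. FAO4A stands at -3.71, MAH1 at -2.10 and CYP86A4 at -1.58, while beta-oxidation genes and catalases lie close to 0.

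Among the route lists, the most negative differences were those of hydroxylases of cutin and wax. Of 9 fatty acid hydroxylases, 8 were below 0, with a median of -0.23, although CYP703A2 was at only -0.0048. None was called. At an unadjusted p under 0.05, 3 (33.3%) were lower and 0 higher, against 5.92% and 4.5% of all genes. CYP86A4, which hydroxylates the end of fatty acids for flower cutin, had intensities of 689.9, 626 and 646 in Mock and 228, 185 and 248 in DEX. The mean DEX signal was 33.7% of the Mock mean, and the difference was -1.58 (SE 0.14, limma adjusted p = 0.0741; adjusted p from 1.33e-05 with the trended and robust prior to 0.299 over the alternatives). CYP77A6, its partner in flower cutin, was at -0.52 (SE 0.12) and CYP86A7 at -0.91 (SE 0.24). Over all genes neither passed with limma's default prior (adjusted p = 0.251 and 0.304). With that prior but without genes below the median intensity, CYP77A6 passed (adjusted p = 0.0454) and CYP86A7 did not (0.0653). With the trended and robust prior both did (adjusted p = 0.0140 and 0.0347), but not without Mock replicate 1 (0.0616 and 0.0736), and under other settings the values reached 0.463 and 0.531.

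MAH1, a cytochrome P450 that turns wax alkanes into secondary alcohols and ketones, had intensities of 920.4, 872 and 938 in Mock. In DEX they were 212, 273 and 164, all far below the Mock values. The mean DEX signal was 23.8% of the Mock mean, a difference of -2.10 (SE 0.20, limma adjusted p = 0.0846; adjusted p from 8.13e-06 with the trended and robust prior to 0.299 over the alternatives). A second MAH1 feature gave 429.7, 450.2 and 421 in Mock and 51.4, 135 and 59.3 on the DEX arrays, which differ by -2.54 on the log2 scale (SE 0.38, limma adjusted p = 0.123). Both MAH1 and CYP86A4 passed with that prior without Mock replicate 1 (adjusted p = 0.000217 and 0.000287).

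The alkane-forming proteins of the same branch differed less. CER3 was at -0.35 (SE 0.10, limma adjusted p = 0.356). With the trended and robust prior its adjusted p was 0.0418, or 0.139 without Mock replicate 1, and it reached 0.583 under other settings. CER1 was at 0.11 (SE 0.10, adjusted p = 0.748). Of 4 acyltransferases that consume alcohols or hydroxy acids, the wax ester synthase WSD1 had intensities of 175, 139 and 186 in Mock and 253, 235 and 265 in DEX. Its groups did not overlap, and the difference was 0.60 (SE 0.15, adjusted p = 0.280; 0.0596 with that prior and up to 0.506 elsewhere). FACT, which makes alkyl caffeates, was at -0.17 (SE 0.13), and the cutin acyltransferase DCR at -0.10 (SE 0.12).

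The surroundings of each FAO locus were read from the locus order of the RefSeq table, using the 5 nearest measured loci on each side. None of these 40 loci was called. At an unadjusted p under 0.05, 3 (7.5%) were lower and 0 higher, against 5.92% and 4.5% of all genes. The loci as a set were thus close to the background, but this pooled share does not describe each surrounding. The 3 lower loci lay around FAO1 (AT1G04040, at -0.36) and FAO4A (AT4G19410, at -0.51, and AT4G19430, described below). The 4 nearest loci of FAO1 (PCS2, AT1G03982, AT1G04000 and PSAT1) had differences between -0.14 and 0.15. Those of FAO3 (AT3G23390, FIB4, AT3G23420 and PHO1) lay between -0.58 and 0.20, and those of FAO4B (AT4G28556, AT4G28560, MGT5 and MRL7) between -0.64 and 0.26. Next to FAO4A, AT4G19360 was at -0.40 (SE 0.51), AT4G19370 at -0.20 (SE 0.45), AT4G19390 at -0.49 (SE 0.32) and AT4G19400 at -0.12 (SE 0.10). The first pair was dim, with Mock means of 9.47 and 2.31. None of these 4 differences came near the -3.71 of FAO4A.

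One locus farther away did come closer. AT4G19430, the fifth measured locus on the side of AT4G19390, had intensities of 178, 154 and 178 in Mock and 31.5, 15.5 and 35.8 in DEX. The groups did not overlap, and the difference was -2.71 (SE 0.33, limma adjusted p = 0.0973; adjusted p from 0.000243 with the trended and robust prior to 0.299 over the alternatives). The RefSeq table lists it as protein-coding without a symbol, and it was named after its values were seen. The loci between it and FAO4A had differences from -0.51 to -0.10. All 10 loci around FAO4A were below 0, although AT4G19330 was at only -0.0099 and the signs of AT4G19360 and AT4G19370 changed when single arrays were left out. Around FAO1, FAO3 and FAO4B 8, 5 and 6 of 10 were below 0.

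**Figure D4:**
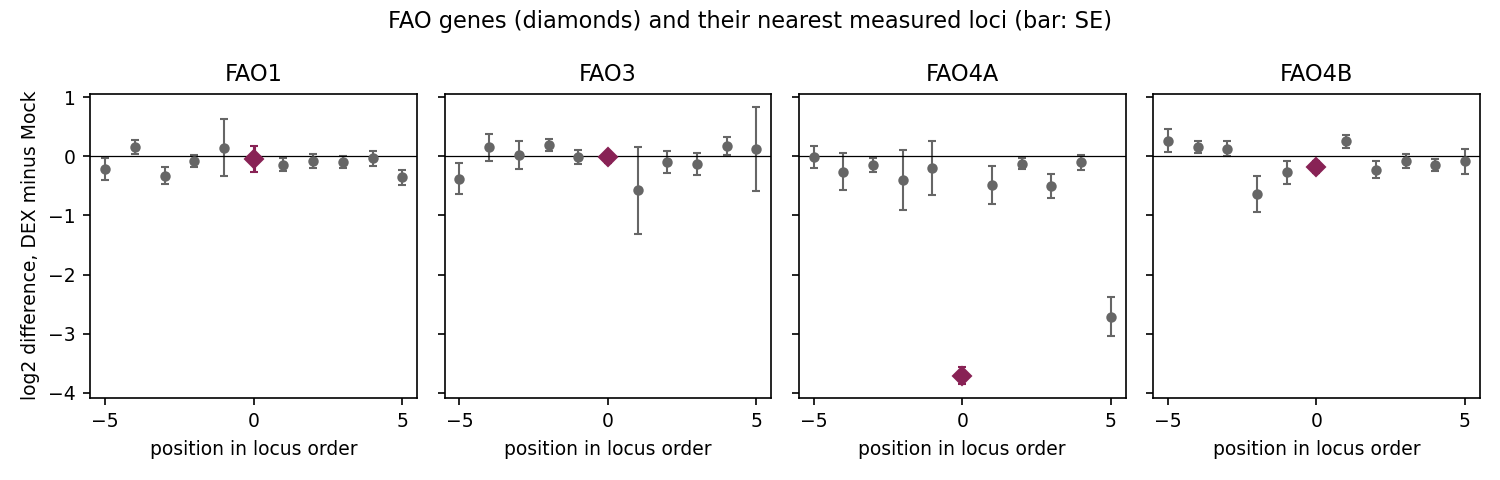
Log2 difference, DEX minus Mock, with its SE, for each FAO gene (diamond, position 0) and the 5 nearest measured loci on each side in locus order. FAO4A at -3.71 and AT4G19430 at -2.71 are low, and the loci between them lie from -0.51 to -0.10.

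The genes whose profile over the 6 arrays was most like that of FAO4A were taken by Pearson's r on log2 intensity. With groups this far apart, r mostly reads the shared difference between Mock and DEX, and all points share their 6 arrays. Among all other genes, 285 had an r above 0.95 and 19 above 0.99. The 5 highest were KDR, GER1, BOP2, WUS and SPL, with r from 0.996 to 0.998. KDR, a small helix-loop-helix protein, had intensities of 70.1, 81.4 and 66.9 in Mock and 26.0, 22.9 and 23.2 in DEX. Its highest Mock and its highest DEX array were the same as those of FAO4A, and its difference of -1.59 (SE 0.13) passed (limma adjusted p = 0.0470, from 0.00295 to 0.299 over the alternatives).

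WUS, the stem cell regulator, was at 149.5, 146 and 136 in Mock and 59.7, 60.5 and 55.7 in DEX, a difference of -1.29 (SE 0.10). SPL, needed for sporogenous cells, was at -1.28 (SE 0.10); both passed (limma adjusted p = 0.0470). Over the alternatives the adjusted p ran from 0.000589 to 0.299 for WUS and from 0.000121 to 0.299 for SPL. The calls of KDR and WUS were lost with quantile normalization (adjusted p = 0.0632 for both) and, with that of SPL, after median centring (0.0644, 0.0663 and 0.0508). BOP2, a regulator of organ bases, was at -0.80 (SE 0.10, adjusted p = 0.0930; 0.00252 with the trended and robust prior and up to 0.305 elsewhere). The germin-like gene GER1 was at -0.40 (SE 0.09, adjusted p = 0.261; 0.00986 with that prior and up to 0.484 elsewhere). None of the 5 is on a fatty alcohol list. By the same measure FAO4B had an r of 0.861 with FAO4A, FAO3 0.234 and FAO1 0.130. Without any one of the 6 arrays no gene passed with limma's default prior, KDR, WUS, SPL, GRF7 and scpl10 included, while 2806 to 3372 genes had an unadjusted p under 0.05.

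**Figure D5:**
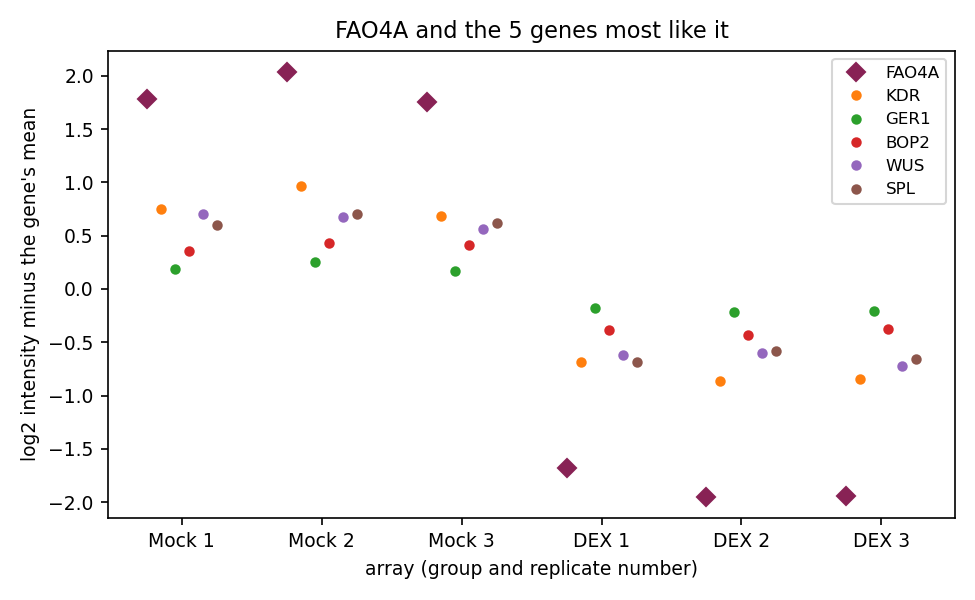
Log2 intensity minus each gene's mean over 6 arrays for FAO4A (diamonds) and the 5 genes most like it, by array. All 6 genes are above their mean on the 3 Mock arrays and below it on the 3 DEX arrays, with FAO4A farthest from its mean on every array.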

How the data were processed

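The authors deposited 1 intensity value per feature and array; RMA is named in the submitters' processing notes, and the range shows a linear scale. Neither RMA's version nor the array's genome build is given in the sources used here. Of 39640 rows, 2522 held no value, which left 37118 features. Intensities were log2-transformed as they stood, without a pseudocount, and of several features of a locus the one with the highest mean stood for the gene, which gave 32627 genes, without a filter. DEX was compared with Mock, 3 arrays each, across all genes with limma 3.58.1 in R 4.3.3 (lmFit, eBayes with the default prior, two-sided), adjusted by Benjamini-Hochberg at 0.05. The fit was tried on simulated data with large shifts in genes above the median intensity only. That trial does not bear on dim genes or small differences. Differences are DEX minus Mock. Arrays give no read depth, and their number limits the precision. The members and lists were chosen with earlier results of these data known. Of each list the called genes, and otherwise the 3 with the smallest unadjusted p, were named, with the 5 genes most like FAO4A, the 4 nearest loci of each member, the next largest called falls and SUP. Named outside this rule were MS2, HTH, CYP703A2, AT1G04040, AT4G19330, AT4G19410 and AT4G19430. Of 6 marker lists only sums and single examples are given. Other settings concerned the replicate block, prior, dim genes, scaling, features, pseudocount and single arrays. All 4 members and 49 route genes matched the RefSeq table, which was used for names and order only.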

Additional observations from a re-analysis of the deposited data

How the results depend on the processing

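FAO4A kept its direction under all 11 settings and was at -2.65 with 16 added to each intensity; otherwise it lay between -3.80 and -3.62, which is also its range without each array in turn. FAO1, FAO3 and FAO4B moved by less than their spread between arrays, with ranges of -0.24 to 0.10, -0.04 to 0.02 and -0.21 to -0.14 without each array, so that the signs of FAO1 and FAO3 are not settled. Against 17 genes called in all and 0 of 49 route genes, the counts were 431 and 8 with the trended and robust prior, 244 and 3 with that prior without Mock replicate 1 (a setting chosen after seeing the data), 105 and 2 with the dimmest 25% of genes removed, 282 and 5 with the genes under the median intensity removed, where fewer genes are tested, and 204 and 2 with 16 added. Without each array in turn both counts were 0, with 8 to 11 route genes at an unadjusted p under 0.05. Replicate numbers were shared between groups. Same-numbered arrays deviated together with small correlations of 0.03, 0.06 and 0.06. These were above the correlations of all differently numbered pairs, which ran from -0.06 to 0.004. As a fixed replicate block the number left 0 genes called in all (limma, with 3513 at an unadjusted p under 0.05) and 0 route genes (12), and as a random replicate block 20 and 0. Quantile normalization, median centring and the mean of all features left 15, 13 and 17 genes called. Small differences changed sign in some settings, and the cause was not tested. With the mean of all features CAT2 was at -0.13 and AT4G19360 at 0.28. Without each array in turn, ALDH3F1 ranged from -0.23 to 0.050, ALDH3H1 from -0.0087 to 0.18, AT3G56060 from -0.33 to 0.021, AT4G19370 from -0.58 to 0.081, AT4G19360 from -0.90 to 0.088 and CAT1 from -0.14 to 0.0090; the last 2 maxima came without Mock replicate 1, with either prior.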
